A study of Mus musculus with 12 samples.

Results

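Ndnf (neuron-derived neurotrophic factor, older symbol A930038C07Rik) was described across 12 arrays of mouse haematopoietic stem cells (HSCs), which reside in bone marrow and give rise to every kind of blood cell. It is 1 gene of 18193 on the array and 1 of the 12083 genes whose signal was high enough to test. Its 2 probe sets were chosen by their annotation to Ndnf and are called the bright and the dim probe set here. The gene itself was chosen by its signal in earlier results of these data, where it was far higher in GFPhigh than in GFP- cells. That difference is therefore given as a description, with no test. The difference between genotypes and its change between populations were not themselves the basis of the choice and were tested. That change is built from the GFPhigh against GFP- difference of each genotype. A choice that drew on 1 genotype alone could thus bear on it and on the genotype difference within a population.

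Ndnf encodes a secreted glycoprotein with fibronectin type III domains. It is known from the nervous system, where it supports the growth and survival of neurons and marks a class of cortical interneurons. In blood vessels and muscle the protein has been described to act through an alpha v integrin and the kinase AKT on the endothelial nitric oxide synthase. Its human gene has been linked to congenital hypogonadotropic hypogonadism, a failure of the neurons that release gonadotropin-releasing hormone, together with several genes of fibroblast growth factor (FGF) signalling.

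The HSCs were sorted by flow cytometry from bone marrow of wild-type mice or of mice with 1 mutant Nras allele, NrasG12D/+, which encodes an oncogenic form of Nras, a RAS GTPase upstream of the ERK kinase cascade. All mice drank doxycycline for 6 weeks and were kept for 12 weeks after its removal. In such a design GFP is made while doxycycline is present and then diluted at each division. The labels call the GFP- cells cycling and the GFPhigh cells quiescent. Both populations were taken from both genotypes, which makes 4 groups, with 3 biological replicates each. The driver of the GFP label, the way the Nras allele was switched on and the age of the mice are not given in the sources used here. No label says whether a replicate was 1 animal or a pool. Values are MAS5 signals, a linear intensity scaled so that the trimmed mean of each array is equal, and array medians ranged from 44 to 129.6. In sorted cells measured in bulk, fewer Ndnf-expressing cells and less Ndnf RNA per cell cannot be told apart.

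The arrays differed in quality. The array weight, a measure of how closely an array follows its group, was 0.308 to 0.522 on 4 arrays and 0.903 to 2.46 on the other 8. The 4, called the uneven arrays below, were wild-type GFPhigh replicate 2, Nras GFP- replicate 1 and Nras GFPhigh replicates 1 and 2. Replicate 3 of each group stood apart in Xist, an RNA of the inactive X chromosome, with signals of 91.8 to 205.1 against 5773.4 to 11480.7 in replicates 1 and 2. HSC identity genes were present throughout, with 20 or 21 of the 21 on the array above the array median in each sample. The signal of Nras checks nothing about the genotype labels, since the mutation changes 1 base.

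At the bright probe set Ndnf gave a high signal in GFPhigh HSCs and a low to middling one in GFP- HSCs, in both genotypes. The wild-type GFPhigh arrays read 3271.3, 3329.2 and 957 at the bright probe set, in the order of the replicate numbers. The Nras GFPhigh arrays read 1174.5, 1963.8 and 1412.5. The 6 GFPhigh arrays thus all lay at 957 signal units or more, with the lowest and the highest both from wild-type cells. The wild-type GFP- arrays read 25, 178.8 and 9.6, and the Nras GFP- arrays read 16.6, 94.1 and 134.8. No GFP- array came near a GFPhigh array: the lowest GFPhigh signal was 5.35 times the highest GFP- signal.

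**Figure D1:**
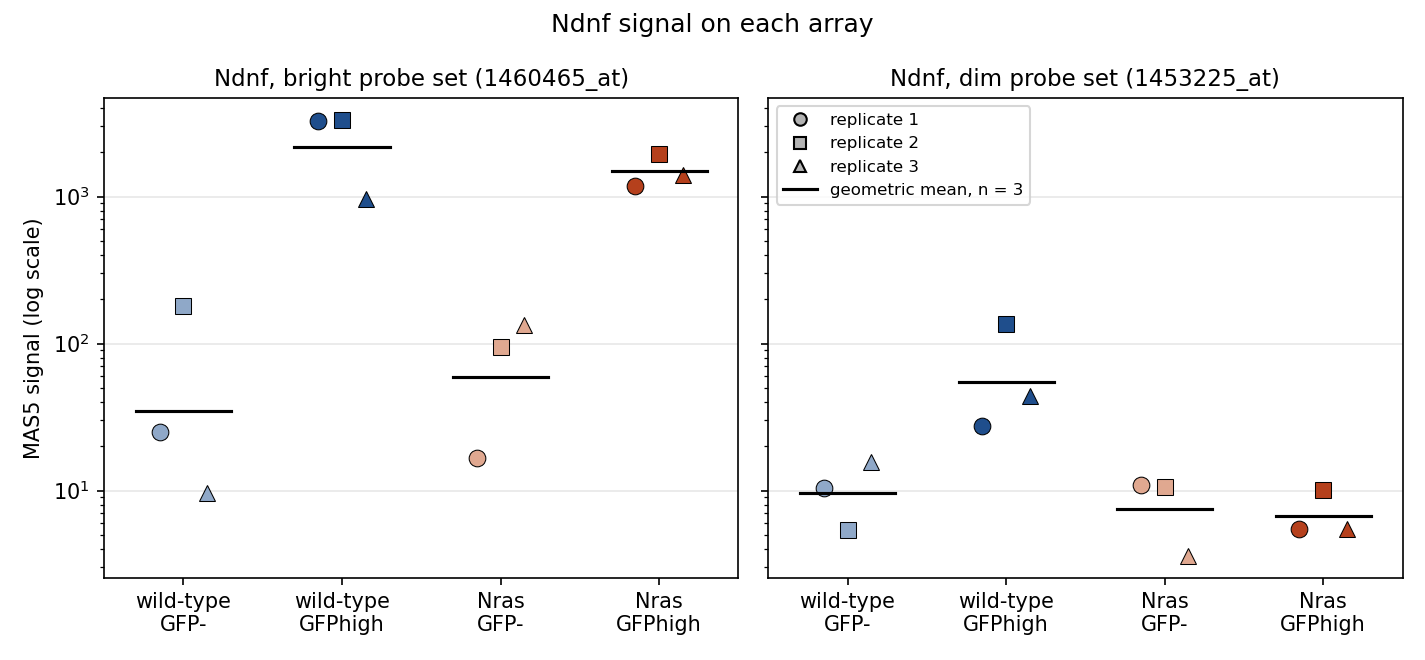
MAS5 signal of the 2 Ndnf probe sets (log axis) in each of the 4 groups, with 1 point per array, the marker giving the replicate number and the bar the geometric mean of 3 arrays. At the bright probe set (left) the 6 GFPhigh arrays lie between 957 and 3329.2 and the 6 GFP- arrays between 9.6 and 178.8; at the dim one (right) the 3 wild-type GFPhigh arrays, 27.4 to 135.1, lie above the other 9.

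In order of level, the geometric mean signal was 2184 in wild-type GFPhigh, 1482 in Nras GFPhigh, 59.5 in Nras GFP- and 35 in wild-type GFP- cells. The arithmetic means were 2519 ± 1353, 1517 ± 405, 81.8 ± 60.0 and 71.1 ± 93.6 (SD, n = 3 each). The 2 GFPhigh groups overlapped, as did the 2 GFP- groups, so neighbours within a population did not differ beyond their spread. The gap in this order lay between Nras GFPhigh and Nras GFP-. The spread on the log2 scale was 0.38 (SD) in Nras GFPhigh, 1.03 in wild-type GFPhigh, 1.62 in Nras GFP- and 2.15 in wild-type GFP-. The dim groups were thus the more variable ones. The residual SD of Ndnf over all groups, 1.45 with 8 degrees of freedom, lay at the 61.2 percentile of the 500 tested genes of nearest mean signal, whose median was 1.30.

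The place of Ndnf on its own array does not depend on scaling between arrays. In wild-type GFPhigh cells the bright probe set stood at the 95.3, 94.7 and 81.8 percentile of all probe sets of its array, and in Nras GFPhigh cells at the 85.5, 91.5 and 87.0 percentile. In wild-type GFP- cells it stood at the 30.3, 60.3 and 18.4 percentile, and in Nras GFP- cells at the 32.0, 57.1 and 54.2 percentile. Of the 6 GFP- arrays 3 therefore had Ndnf above the array median and 3 below it. Divided by the array median, the signal was 8.40 to 58.6 in GFPhigh and 0.10 to 2.23 in GFP- cells. No detection calls were used, so the lowest GFP- signals cannot be told apart from background.

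**Figure D2:**
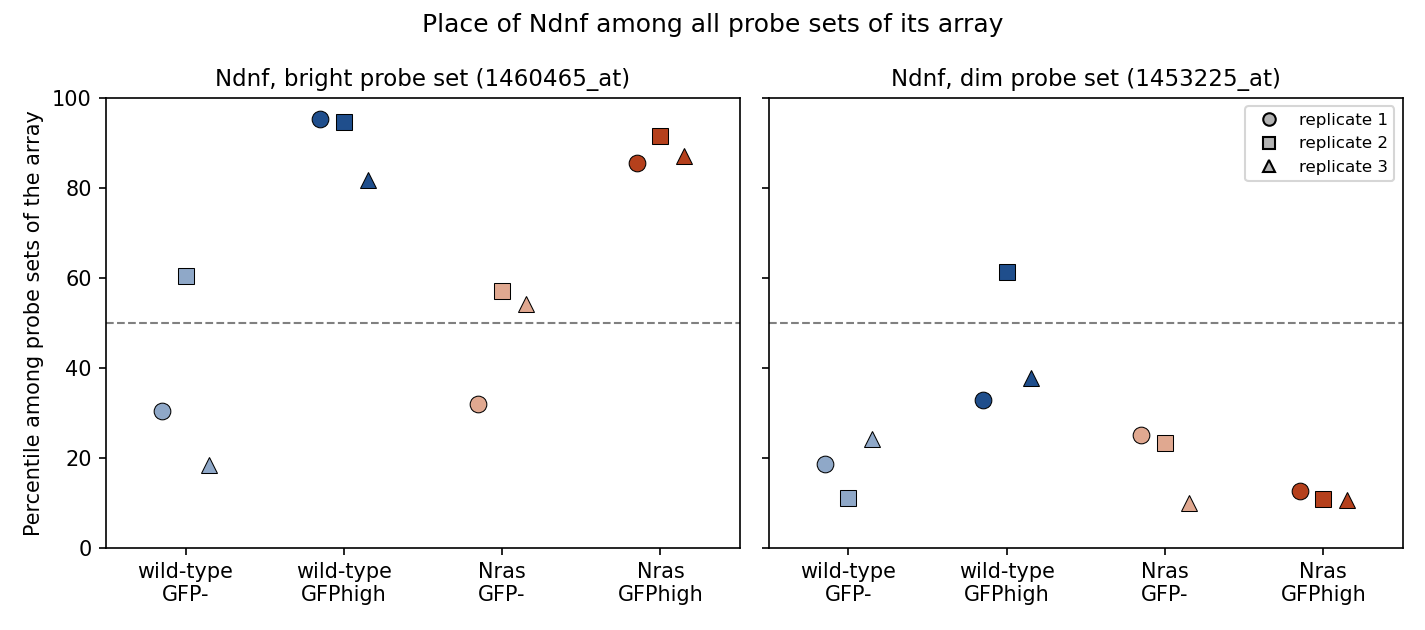
Percentile of the 2 Ndnf probe sets among all probe sets of the same array (0 is the dimmest), by group, 1 point per array with the marker giving the replicate number and a dashed line at the array median. At the bright probe set (left) the GFPhigh arrays lie at 81.8 to 95.3 and the GFP- arrays at 18.4 to 60.3; at the dim one (right) wild-type GFPhigh replicate 2 is the one array above the median.

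On the log2 scale Ndnf was higher in GFPhigh than in GFP- cells by 5.96 ± 1.10 (SE) in wild-type mice, 62.4-fold, and by 4.64 ± 1.10 in Nras mice, 24.9-fold. Averaged over both genotypes the difference was 5.30 ± 0.78, 39.4-fold. By replicate number the difference was 7.03, 4.22 and 6.64 in wild-type mice and 6.14, 4.38 and 3.39 in Nras mice, although the numbers do not show that cells came from the same animal. Because the GFP- signals are low, the fold depends on how they are treated: on the log2(signal + 100) scale the averaged difference was 3.53, and the 2 genotypes gave 3.88 and 3.18. Without the 4 uneven arrays it was 4.65, and without replicate 3 of every group 5.44. Among all 12083 genes the averaged difference of Ndnf ranked 1, also with the pseudocount of 100. In wild-type cells it ranked 2, and in Nras cells 62, or 1 and 15 with the pseudocount. These ranks describe how the gene was chosen.

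**Figure D3:**
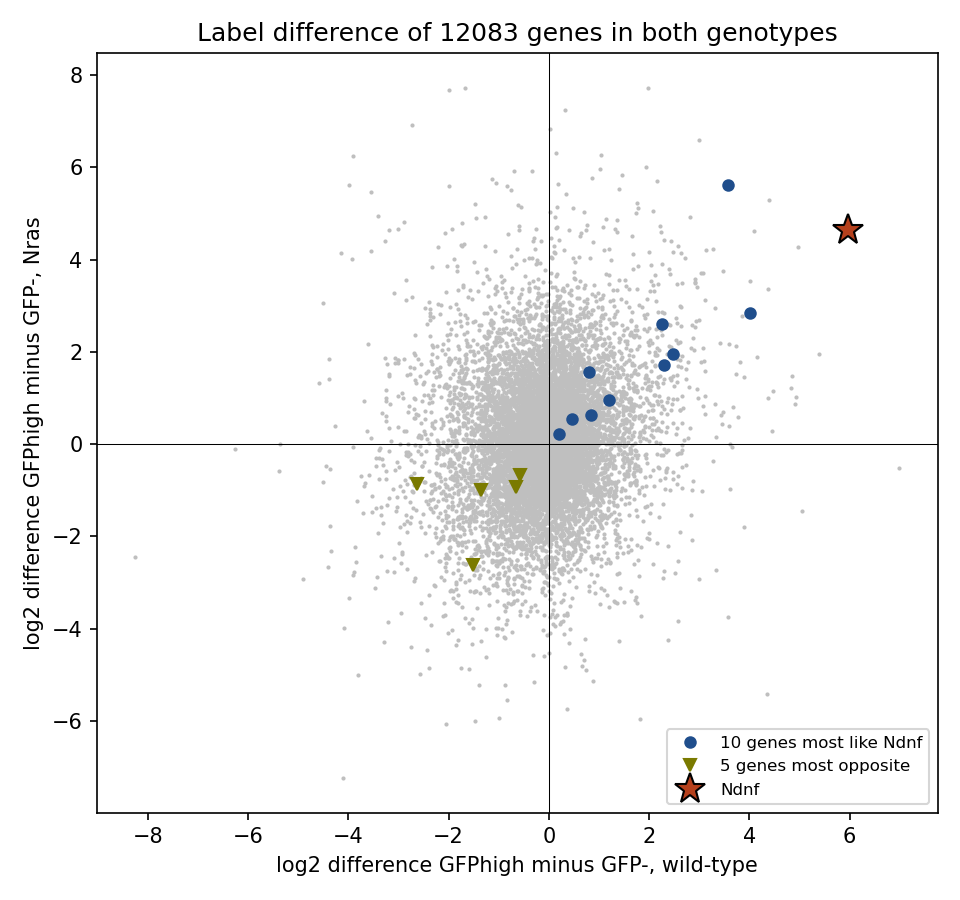
GFPhigh minus GFP- difference (log2) in wild-type cells (x axis) against that in Nras cells (y axis), 1 grey point for each of 12083 tested genes. The star is Ndnf at 5.96 and 4.64, the circles are the 10 genes whose signals followed Ndnf most closely and the triangles the 5 that ran most opposite to it.

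A separation of all 6 GFPhigh arrays above all 6 GFP- arrays was met by 28 of the 12083 genes, 0.232%. Ndnf had the second widest gap among them, after Il10ra, which binds interleukin-10 at the cell surface, with 5.80-fold. Meg3, an imprinted long non-coding RNA, followed with 2.91-fold. Ndnf was chosen for this same difference, so its separation and its place among the 28 are a description. Il10ra lay below the array median on every GFP- array, so it passed the filter through GFPhigh arrays alone. Il10ra and Meg3 are also among the genes most like Ndnf described below. No gene of the whole table passed a Benjamini-Hochberg adjusted p under 0.05 in limma for GFPhigh against GFP- over both genotypes or in either one, a share of 0% each, while 4.36% of genes were higher and 4.51% lower at an unadjusted p under 0.05 over both genotypes. At that unadjusted threshold 266 genes differed in wild-type and 1470 in Nras cells. Without Nras GFPhigh replicate 3, leaving only uneven arrays there, 16 genes passed the adjusted threshold over both genotypes and 161 in Nras cells. Without Nras GFP- replicate 3 these counts were 3 and 12, without wild-type GFP- replicate 2 the first was 1, and without Nras GFPhigh replicate 2 the second was 1.

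The second probe set gave another picture. At the dim probe set the wild-type GFPhigh arrays read 27.4, 135.1 and 43.8, and the wild-type GFP- arrays 10.4, 5.4 and 15.6. The Nras GFPhigh arrays read 5.5, 10.1 and 5.5, and the Nras GFP- arrays 10.9, 10.5 and 3.6. This probe set was dim everywhere, and wild-type GFPhigh replicate 2 was the one array on which it exceeded the array median, at 2.38 times that median. The wild-type GFPhigh arrays lay above all others, while Nras GFPhigh overlapped Nras GFP-. Its difference between GFPhigh and GFP- was 2.51 ± 1.26 in wild-type and -0.14 ± 1.26 in Nras cells (log2, SE), so the high Ndnf signal of Nras GFPhigh cells rests on the bright probe set alone. The mean of both probe sets gave 4.24 in wild-type and 2.25 in Nras cells.

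The effect of the Nras mutation on Ndnf at the bright probe set was smaller than the residual SD over all groups, 1.45. The SE and intervals below rest on a spread shared by all groups. The log2 SD was 0.38 and 1.03 in the GFPhigh groups and 1.62 and 2.15 in the GFP- groups. Nras minus wild-type was -0.56 ± 1.10 (log2, SE) in GFPhigh cells, with a 95% interval of -2.94 to 1.82 and an adjusted p of 0.921 in limma. That value was -1.16 without wild-type GFPhigh replicate 3, -0.26 without wild-type GFPhigh replicate 2, -0.27 without wild-type GFPhigh replicate 1, -1.79 with the mean over both probe sets and 0.56 with replicate 3 alone. In GFP- cells it was 0.76 ± 1.10, with an interval of -1.62 to 3.15 and an adjusted p of 0.983 in limma. Averaged over both populations it was 0.10 ± 0.78, with an interval of -1.58 to 1.79 and an adjusted p of 0.980 in limma. These intervals leave room for changes of several-fold either way. The sign in GFP- cells turned to -0.17 without wild-type GFP- replicate 3, the array with the lowest Ndnf signal, and the difference grew to 1.94 without wild-type GFP- replicate 2. The averaged sign turned in 5 of the 12 fits that left out 1 array, the lowest value being -0.36 without wild-type GFP- replicate 3.

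Exact two-sided permutation tests gave p = 0.4 in GFPhigh and p = 0.8 in GFP- cells, where 20 arrangements allow no p below 0.1. Over both populations, permuting within each, the exact p was 0.915 and the smallest possible 0.005. Adjusted over the 6 such tests run on both probe sets, these 3 values were 0.8, 0.915 and 0.915. The share of all genes called in limma was 0% for the genotype in each population and 0.00828% over both. That share is 1 gene, Gem, a small GTPase of the RGK family, named after its values were seen, and the count was 0 in 9 of the 12 fits that left out 1 array. At an unadjusted p under 0.05, 530 genes differed in GFP- cells, 1002 in GFPhigh cells and 940 over both. Without Nras GFPhigh replicate 3, 17 genes were called in GFPhigh cells, and without Nras GFP- replicate 3, 8 in GFP- cells and 5 over both. Without Nras GFPhigh replicate 2 there were 2 in GFPhigh cells and 2 over both.

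The gain of Ndnf signal with the label was 1.32 ± 1.56 (log2, SE) smaller in Nras than in wild-type cells, a difference of differences of -1.32 with a 95% interval of -4.69 to 2.04. Its unadjusted p was 0.411 and its adjusted p 0.960 in limma, where 0% of genes were called for this term and 566 had an unadjusted p under 0.05. Without wild-type GFPhigh replicate 2, 1 gene was called. At this spread the label difference was not shown to depend on the genotype. With replicate 3 alone the value was -3.25 and with replicates 1 and 2 alone -0.36.

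At the dim probe set the genotypes stood further apart. In GFPhigh cells Nras minus wild-type was -3.02 ± 1.26 (log2, SE), with a 95% interval of -5.73 to -0.30. All 3 Nras arrays were below all 3 wild-type arrays, and the exact permutation p of 0.1 was the smallest the design allows. The unadjusted p was 0.0321 and the adjusted p 0.640 in limma, so the difference did not pass over the probe sets fitted with it. On the log2(signal + 100) scale it was -0.60. Over both populations the exact permutation p was 0.035, or 0.21 adjusted over the 6 exact tests, for a difference of -1.69 ± 0.89, with an adjusted p of 0.691 in limma. Gapdh has probe sets at both ends of its transcript, and their 3' to 5' ratio, which increases as RNA degrades, was 7.28 and 5.70 in Nras GFPhigh replicates 1 and 3 and 2.57 to 4.48 on the other 10 arrays. Its part in this difference was not tested.

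Over the 12 arrays the gene whose log2 signal followed Ndnf most closely was Cdkn1c, the CDK inhibitor p57, which restrains cell cycle entry and is known to keep HSCs quiescent. Its Pearson correlation with Ndnf was 0.95, its Spearman correlation 0.96. Cdkn1c read 1520.5, 2693.8 and 1012.4 in wild-type GFPhigh and 876.6, 1502.5 and 2102.7 in Nras GFPhigh cells. It read 278.4, 538 and 230.5 in wild-type GFP- and 202.7, 484.3 and 799.4 in Nras GFP- cells. The order of the 3 replicates was nearly that of Ndnf: in wild-type GFP- cells replicate 2 was highest and replicate 3 lowest for both genes, and in Nras GFP- cells replicate 1 was lowest and replicate 3 highest for both. Deviations of Cdkn1c from its group means still had a correlation of 0.83 with those of Ndnf. The arrays share their scaling and their quality, and correlations over 12 arrays in 4 groups are a description. The median correlation of all genes with Ndnf was 0.02, with 20 genes at 0.8 or more and 7 at -0.8 or less.

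The next gene was Cd82, a tetraspanin of the cell surface, with a correlation of 0.89 overall and, ranking first of all genes, 0.92 for deviations within groups. Cd82 read 389.9, 468.1 and 339.7 in wild-type GFPhigh, 489.1, 680.1 and 670.8 in Nras GFPhigh, 253.7, 353.7 and 132.5 in wild-type GFP- and 124.9, 239.7 and 283.8 in Nras GFP- cells. Its range was far narrower than that of Ndnf, and 1 GFP- array exceeded the lowest GFPhigh array. Its averaged label difference was 1.18 (log2) against 2.01 for Cdkn1c.

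The other 8 genes most like Ndnf had correlations of 0.84 to 0.85. Il10ra differed between the populations by 4.59 (log2), from 4.2 to 15.3 signal units in GFP- to 88.8 to 853.4 in GFPhigh cells. With the pseudocount of 100 the difference was 1.57, and its 3 probe sets gave 1.98 to 4.59. Its within-group correlation with Ndnf was 0.21, so the 2 genes shared the label difference and little of the variation among replicates. Meg3 was similar in this respect, with a label difference of 3.43 and a within-group correlation of -0.01, and its 11 probe sets gave differences of 0.15 to 5.11. Gimap3, a GTPase of immune cells, differed by 2.42, and Mcrip2 by 2.22. Akt1s1, the AKT substrate and mTORC1 inhibitor PRAS40, differed by 1.08, Tbc1d22a by 0.73 and Ppp2r2a, a regulatory subunit of protein phosphatase 2A, by 0.51. Lamp2, a lysosomal membrane protein, differed by 0.21, and its probe sets spanned -1.61 to 0.21. Those of Ppp2r2a spanned -0.23 to 0.51. Of the 10 genes 5, Cdkn1c, Il10ra, Gimap3, Akt1s1 and Meg3, had no overlap between GFPhigh and GFP- arrays, as had 0.232% of all genes. Likeness to Ndnf, which itself separates the populations, largely fixes that count. The set depends on the measure: 4 of the 10 were among the top 10 by Spearman correlation, 4 with the pseudocount of 100 and 2 for deviations within groups, and Cdkn1c led the first 2 of these.

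**Figure D4:**
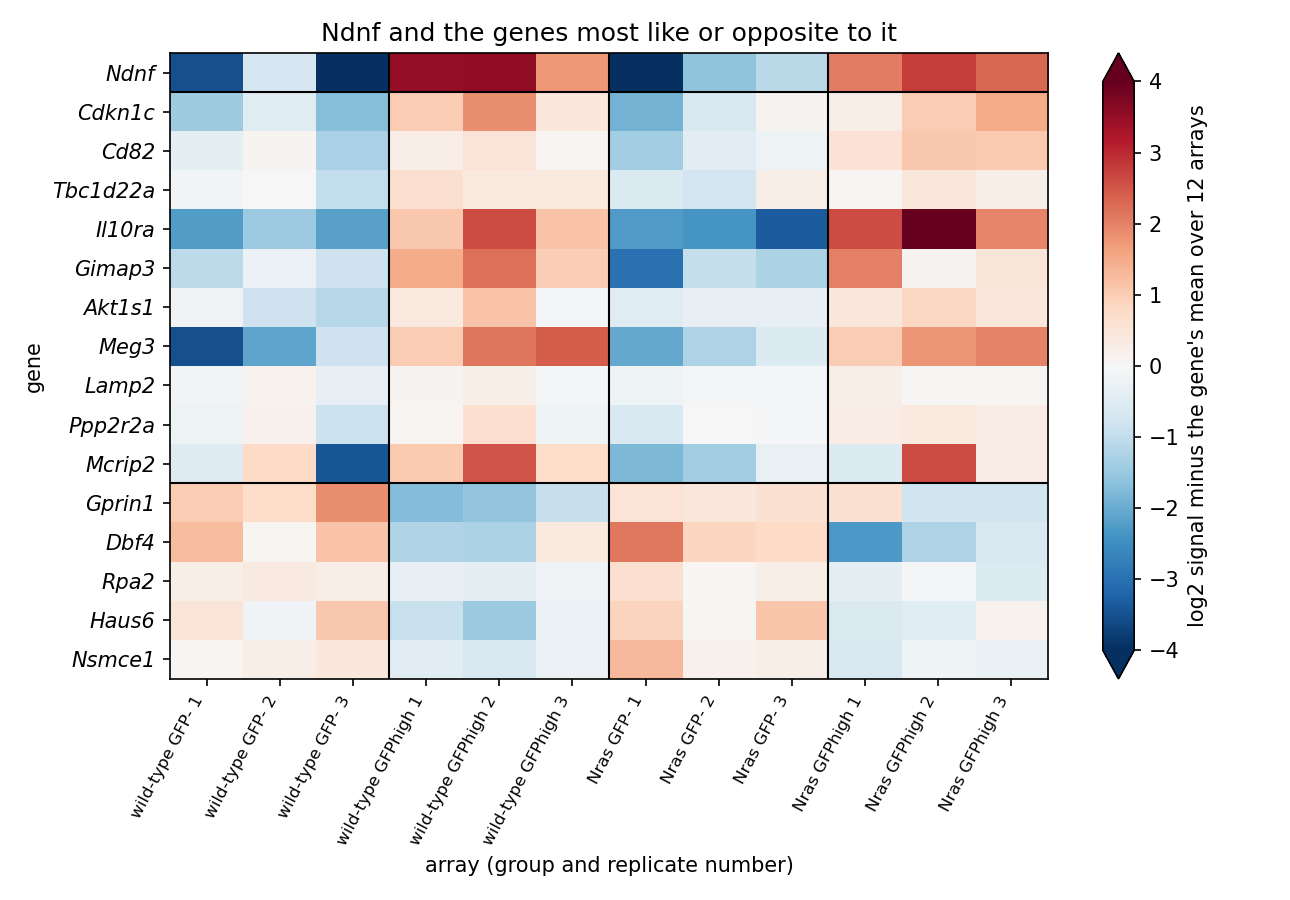
Log2 signal minus the gene's mean over 12 arrays (colour, red above and blue below the mean, with values beyond 4 at the end colours) for Ndnf, the 10 genes of highest and the 5 of lowest Pearson correlation with it, in each array (columns, by group and replicate). Cdkn1c, at a correlation of 0.95, has its lowest arrays where Ndnf has, and Dbf4, at -0.87, runs the opposite way.

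Genes that ran opposite to Ndnf included genes of DNA replication and mitosis. Dbf4, the activating subunit of the kinase that fires replication origins, had a correlation of -0.87. It read 208.8, 196.9 and 617.4 in wild-type GFPhigh and 97.4, 202.4 and 311.5 in Nras GFPhigh cells. It read 1133, 499.7 and 1038.1 in wild-type GFP- and 2050.7, 860.3 and 828.9 in Nras GFP- cells. The wild-type GFPhigh array with the highest Dbf4 signal was the one with the lowest Ndnf signal. In Nras GFPhigh cells, by contrast, replicate 1 was lowest for both genes. Rpa2, a subunit of the single-stranded DNA binding complex, had a correlation of -0.86, Haus6, a spindle protein, -0.85 and Nsmce1, a subunit of the SMC5/6 complex, -0.82. Gprin1, known from neurite outgrowth, had -0.87. Gprin1 and Nsmce1 each have 3 probe sets, and their label differences ran both ways, from -1.75 to 0.69 and from -0.80 to 1.73.

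Cell cycle genes were mostly lower in GFPhigh cells and HSC genes mostly higher. Of 27 tested genes of G1/S and replication, 23 were lower in GFPhigh cells, with a median of -1.05 (log2), and 14 of them at an unadjusted p under 0.05, where 4.51% of all genes were lower. Of 26 genes of G2/M and mitosis 25 were lower, with a median of -1.45 and 9 at that threshold. Of 23 HSC quiescence genes 17 were higher, with a median of 0.41 and 5 at an unadjusted p under 0.05, where 4.36% of all genes were higher. Of 21 HSC identity genes 17 were higher, with a median of 0.28 and 7 at that threshold. Over all genes tested 6167 were higher and 5916 lower, with a median of 0.02. No member of these lists passed the adjusted threshold in limma.

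Genes of the pathways linked to the Ndnf protein differed between the populations about as often as genes in general. The 7 lists read were FGF receptors, FGF ligands, FGF signal adaptors and feedback genes, heparan sulphate synthesis and carriers, alpha v integrin with AKT and nitric oxide synthase, neurotrophic factors, and genes of hypogonadotropic hypogonadism. Of the 143 genes listed 78 were tested, with a median difference of 0.28 between GFPhigh and GFP- cells. Of the 78, 5 genes, 6.41%, were higher at an unadjusted p under 0.05 and 3, 3.85%, were lower, near the 4.36% and 4.51% of all genes. None passed the adjusted threshold, the smallest adjusted p in limma being 0.217. Of the 78, 1 gene, Pik3r1, had no overlap between the populations, with a gap of 1.02-fold, against 0.232% of all genes.

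**Figure D5:**
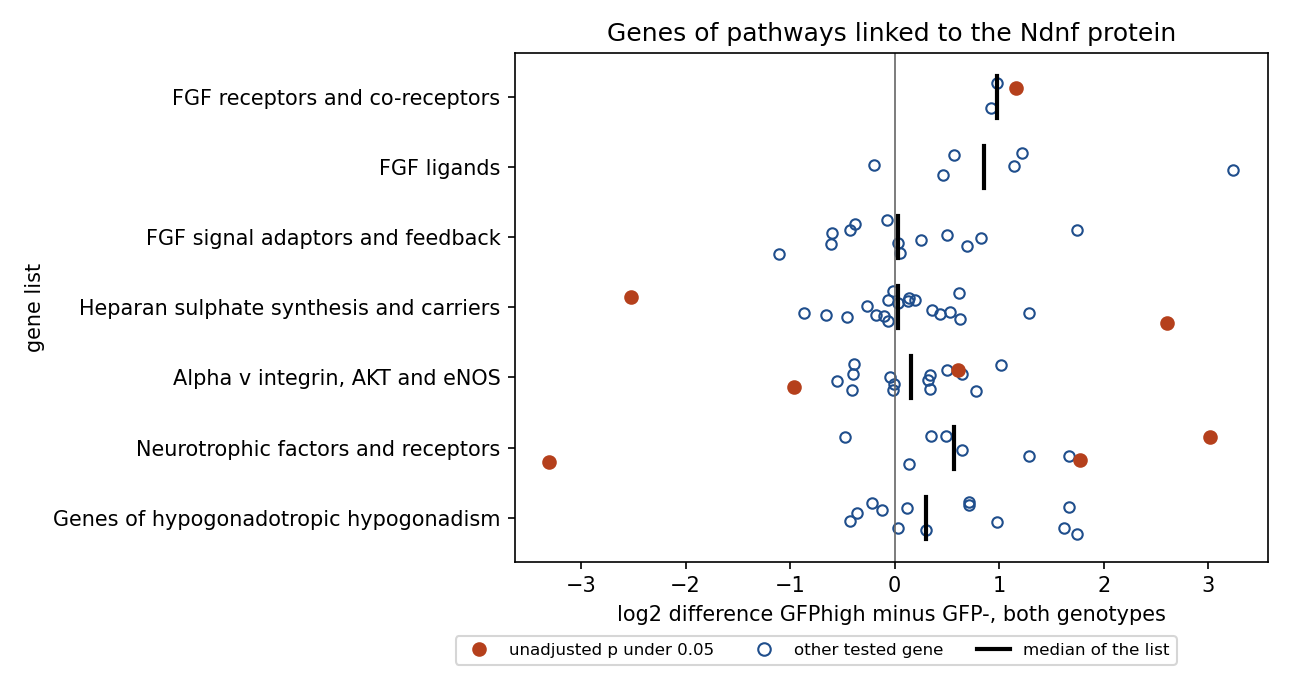
GFPhigh minus GFP- difference (log2, averaged over both genotypes; x axis) of the tested genes in 7 lists linked to the Ndnf protein (y axis), with filled points for genes at an unadjusted p under 0.05 and a bar at each list's median. The medians lie between 0.03 and 0.97, and filled points occur on both sides of 0.

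Among ligands, the neurotrophin Ntf5 had a label difference mainly in wild-type cells. It read 322.4, 236.4 and 393.2 in wild-type GFPhigh and 8.6, 24.4 and 6.3 in wild-type GFP- cells. It read 32.6, 32 and 20.7 in Nras GFPhigh and 10.7, 18.6 and 8.8 in Nras GFP- cells. The wild-type GFPhigh arrays stood far above all others. The averaged difference was 3.02 ± 0.62 (log2, SE; adjusted p = 0.217, limma), with 4.82 in wild-type and 1.21 in Nras cells. The difference between these, -3.61 ± 1.23, had an unadjusted p of 0.0118 and an adjusted p of 0.956 in limma. Its signal lay below the array median on every array outside wild-type GFPhigh cells, so it passed the filter through that group alone. It was named for its small p among the neurotrophic factors, so these values are a description. With the pseudocount of 100 the averaged difference was 1.03.

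Fgf2, the basic fibroblast growth factor, read 372.2, 2121 and 23.9 in wild-type GFPhigh and 3.4, 1 and 2.7 in wild-type GFP- cells. In Nras mice it read 36.2, 36.7 and 0.9 in GFPhigh and 3.1, 532.9 and 2.1 in GFP- cells. One Nras GFP- array thus exceeded every Nras GFPhigh array. The label difference was 6.99 (log2) in wild-type and -0.51 in Nras cells, and the difference of the 2, -7.50 ± 3.15, had an unadjusted p of 0.0332 and an adjusted p of 0.956 in limma. With GFP- signals of 1 to 3.4 in wild-type cells these values depend on the log scale, and with the pseudocount of 100 the averaged label difference was 0.85 and the difference of the 2 genotypes -2.92. Fgf2 exceeded the array median only on wild-type GFPhigh replicates 1 and 2 and Nras GFP- replicate 2, the fewest arrays the filter allows. It was named for its small p among the FGF ligands, so its differences are a description. Of the 6 tested FGF ligands 5 were higher in GFPhigh cells, with a median of 0.85, and none at an unadjusted p under 0.05. Nenf, a secreted haem-binding neurotrophic factor, was higher by 1.77 ± 0.78 (adjusted p = 0.551, limma). Ptn, pleiotrophin, a secreted heparin-binding growth factor that supports HSCs, gave -3.30 ± 1.24 (adjusted p = 0.523, limma). Ptn lay below the array median on every GFPhigh array, so it passed the filter through GFP- arrays alone. Named for its small p among the neurotrophic factors, Ptn is a description too. Its lowest GFPhigh arrays read 1.2 and 1.7, the difference was -1.09 with the pseudocount of 100, and its 3 probe sets gave -3.30 to -0.65.

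Of the 10 FGF receptor genes and co-receptors 3 were bright enough to test, and all 3 were higher at their brightest probe set. Fgfr3, a receptor tyrosine kinase, gave 1.16 ± 0.51 (log2, SE; adjusted p = 0.551, limma), Fgfr1, the receptor mutated in hypogonadotropic hypogonadism, 0.97 ± 0.68, and Fgfrl1, a receptor without a kinase domain, 0.92 ± 0.79. The 3 probe sets of Fgfr1 spanned -0.24 to 0.97 and the 2 of Fgfrl1 -0.46 to 0.92, while the 2 of Fgfr3 gave 0.79 and 1.16. Fgfr3 read 242.4 to 735.7 in GFPhigh and 80.2 to 281.5 in GFP- cells, so the populations overlapped. Of 13 adaptors and feedback genes 7 were higher and 6 lower, with a median of 0.03. Spry4, a feedback inhibitor, gave 1.74 and Etv5, an ERK-responsive transcription factor, -1.11, and none of the 13 had an unadjusted p under 0.05. The probe sets of Spry4 spanned -0.05 to 1.74 and those of Etv5 -1.11 to 0.36.

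Of 21 tested genes of heparan sulphate synthesis and its carriers 11 were higher and 10 lower, with a median of 0.03. A pair of syndecans, membrane proteins that carry heparan sulphate, stood at the ends. Sdc1 gave 2.61 ± 1.08 and Sdc2 -2.52 ± 0.86 (log2, SE; adjusted p 0.548 and 0.475, limma). With the pseudocount of 100 they gave 0.97 and -1.57. The 4 probe sets of Sdc1 spanned 0.52 to 2.61, and its lowest array, Nras GFP- replicate 1, read 0.5. The 4 probe sets of Sdc2 spanned -2.52 to 1.72. Of 13 tested genes of hypogonadotropic hypogonadism 9 were higher and 4 lower, with a median of 0.30 and none at an unadjusted p under 0.05.

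In the integrin and AKT list 8 of 16 tested genes were higher and 8 lower, with a median of 0.15. Pik3r1, the regulatory subunit of phosphoinositide 3-kinase, read 7417.9 to 13203.6 in GFPhigh and 5471.9 to 7261.8 in GFP- cells. The 2 ranges did not meet, and the difference was 0.60 ± 0.13 (log2, SE; adjusted p = 0.219, limma). Itgb1, the integrin beta 1 chain, gave -0.96 ± 0.37 (adjusted p = 0.525, limma), and its 6 probe sets spanned -0.96 to 1.37. Itgav and Itgb3, the alpha v and beta 3 chains, gave 0.33 ± 0.38 and 0.34 ± 0.45, and Akt1 0.50 ± 0.65. Their probe sets also ran both ways, from -0.55 to 1.22 for Itgav, -0.43 to 0.34 for Itgb3 and -0.55 to 0.50 for Akt1. Nos3, the endothelial nitric oxide synthase, was on the array and too dim to test. For the change of the label difference with genotype, 1 of the 78 pathway genes was above 0 at an unadjusted p under 0.05 (Pik3r1) and 3 below (Ntf5, Fgf2 and Pik3cd), against 2.43% and 2.25% of all genes.

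Markers of other cell types, some of them known to express Ndnf, were read on the same arrays. Of 12 neuronal markers 0 to 3 were above the array median, and their summed signal was 206.8 to 445.2 in GFP- and 191.7 to 948.8 in GFPhigh cells. The 18 endothelial markers summed to 7387.8 to 10648.1 in GFP- and 8176.4 to 14331.2 in GFPhigh cells, with 9 to 13 above the array median. HSCs themselves express several of these endothelial genes. The 18 stromal and bone markers summed to 1303 to 1612 in wild-type GFP-, 659 to 1601 in wild-type GFPhigh, 494 to 1471 in Nras GFP- and 2116 to 7124 in Nras GFPhigh cells. By that sum the Nras GFPhigh arrays lay above all others. The number of these markers above the array median was 2 to 4 in wild-type GFP-, 3 to 6 in wild-type GFPhigh, 1 to 5 in Nras GFP- and 4 to 9 in Nras GFPhigh cells. Summed signals of 14 granulocyte markers were 1068 to 13342 in wild-type GFPhigh, 6199 to 60307 in Nras GFPhigh and 2713 to 13507 in the GFP- groups. In Nras GFPhigh cells they were 44869 and 60307 on replicates 1 and 2, both uneven arrays, and 6199 on replicate 3. On the same 3 arrays monocyte and macrophage markers summed to 26932, 28789 and 11662 and erythroid markers to 27490, 28845 and 10985. Megakaryocyte and mast cell markers there did not exceed the highest sum of the other groups. B cell markers summed to 1114.9, 3720.6 and 1281.6 on these 3 arrays, against at most 1341.5 in the other groups. T and NK cell markers summed to 1221, 1880.8 and 396.5, against at most 1124.8. The highest neuronal sum, 948.8, was that of Nras GFPhigh replicate 2. No marker of any list was listed at 0. The part of other cells in the Ndnf signal was not tested.

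In the order of genes on chromosome 6 in the RefSeq annotation of GRCm38.p6, the tested neighbours nearest to Ndnf were Hpgds and Smarcad1 on one side and Mad2l1 on the other. Hpgds, the haematopoietic prostaglandin D synthase, differed between GFPhigh and GFP- cells by 0.57 ± 0.98 (log2, SE; adjusted p = 0.897, limma), and without replicate 3 its sign turned. Smarcad1, a chromatin remodeller, gave 1.07 ± 0.48 (adjusted p = 0.556, limma), and Mad2l1, a spindle checkpoint protein, -0.56 ± 0.65 (adjusted p = 0.834, limma). The 2 probe sets of Smarcad1 spanned -0.11 to 1.07. None of these neighbours had the separation seen at Ndnf. Hpgds read 26.2 to 1379.1 in GFPhigh and 25.8 to 521.2 in GFP- cells.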

How the data were processed

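Total RNA of sorted mouse HSCs, extracted with Trizol and labelled as biotinylated cRNA per the labels' protocols, was measured on 12 arrays. The deposited values are intensity on a linear scale, made with MAS5 per the submitters' processing notes; its version is not given in the sources used here, and no detection calls were used. The signals of 45101 probe sets were log2 transformed without further normalization, after a floor of 0.1 replaced 3 zeros. Probe sets with 1 gene symbol (34945) were kept; 932 had several symbols, 9160 none and 64 were controls. A gene was read from its brightest probe set (by mean log2 signal), and 12083 of 18193 genes were tested, those above the array median on at least 3 arrays.

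A limma model with a mean per group and an intensity trend gave all 7 comparisons, with SE after variance moderation and Benjamini-Hochberg adjustment over the genes tested. The dim Ndnf probe set was tested in the same model over all single-symbol probe sets that passed the filter. It was added to them although it did not pass. Named genes were Ndnf, the 10 of highest and 5 of lowest Pearson correlation with it, chromosome neighbours, a few fixed pathway members and fixed checks. Each pathway list added up to 3 genes of smallest p for the averaged label difference. It also added up to 2 of smallest p for the change of that difference with genotype. Genes and lists were chosen with earlier results of these data known. The number of arrays limits the precision, and p-values measure the spread between samples called biological replicates. Correlations of same-numbered samples were -0.04 to 0.15, with 3 of 18 above 0.1, all in replicate 3, so numbers were not treated as pairs. Alternatives were array weights, other filters, scalings, pseudocounts and probe set rules, a replicate block and arrays left out. The fit was tested on simulated data with 200 changed genes. Versions were R 4.3.3, limma 3.58.1, matplotlib 3.10.9 with Python 3.11.15, pandas 2.3.3 and numpy 2.4.6.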

Additional observations from a re-analysis of the deposited data

How the results depend on the processing

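Ndnf was higher in GFPhigh than in GFP- cells in both genotypes under each alternative that used the bright probe set alone, with an averaged difference (log2) of 4.84 to 5.89 when 1 array was left out (5.03 to 7.14 in wild-type, 3.72 to 5.23 in Nras cells). With the pseudocount of 100 the averaged, wild-type and Nras differences were 3.53, 3.88 and 3.18, with the dim probe set 1.18, 2.51 and -0.14, and with the mean over probe sets 3.24, 4.24 and 2.25. Nras minus wild-type over both populations was -0.041 with a 25th percentile pseudocount (15.5), -0.19 with that of 100, -1.69 at the dim probe set, -0.79 with the mean, -0.94 with replicates 1 and 2 and 2.19 with replicate 3 alone, and -0.36 to 0.69 with 1 array left out. In GFP- cells it was -0.36 at the dim probe set, -0.76 with replicates 1 and 2, 3.81 with replicate 3 alone and -0.17 to 1.94 with 1 array left out. In GFPhigh cells it was -1.16 to -0.26 with 1 array left out, -1.79 with the mean and 0.56 with replicate 3 alone. The interaction was -3.25 with replicate 3 alone, and -2.50 to -0.39 with 1 array left out. The cause of these changes was not tested.

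Genes called for GFPhigh against GFP- over both genotypes were 0 in the report. They were 8 with array weights, 1 with no filter, 2 with median centring and 4 with the 25th percentile pseudocount. With the pseudocount of 100 they were 6, with the mean over probe sets 4, without the trend 1 and at an adjusted p under 0.1 they were 5. In wild-type cells array weights gave 4, and in Nras cells median centring gave 3. Counts without the uneven arrays are left out, since replicate 3 was then the only Nras GFPhigh array. The count of 1 for the genotype over both populations (Gem) became 2 after quantile normalization. It became 0 with median centring, every probe set, no shared probe sets, no trend, replicates 1 and 2 or the replicate block. With 1 array left out the counts were 0 to 16 for the label over both genotypes, 0 to 161 in Nras cells, 0 to 8 and 0 to 17 for the genotype in GFP- and GFPhigh cells, 0 to 5 over both and 0 to 1 for the interaction. The counts of 16, 161 and 17 came without Nras GFPhigh replicate 3, which left only uneven arrays in that group. Those of 8 and 5 came without Nras GFP- replicate 3, which also gave 3 for the label over both genotypes and 12 in Nras cells. The replicate block changed no other call and left the Ndnf differences at 5.30, 5.96 and 4.64. All 3 same-number correlations above 0.1 were within replicate 3, which shares the low Xist signal, and the numbers did not meet the rule for pairs, a correlation over 0.1 in each pair.

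Of 49 named genes 41 kept the sign of their label difference throughout. The sign turned for Pik3cd (0.15 with array weights, 0.16 with quantile normalization, 0.027 with the pseudocount of 100, 0.66 with the mean; -0.25 to 0.23 with 1 array left out), Fgf23 (-0.51 with array weights, -0.17 without uneven arrays; -0.20 to 1.27), Lamp2 (-0.49 with the mean, -0.27 without shared probe sets), Nsmce1 (0.40) and Itgb3 (-0.049) with the mean, Tacr3 (-0.55; -0.069 to 0.72) and Nras (0.052) without uneven arrays, and Hpgds (-0.082 with replicates 1 and 2; -0.011 to 1.42). Of the 10 genes most like Ndnf, 4, 4 and 2 were shared with the other measures. Low GFP- signals limit any fold for Ndnf.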
